A study of Mus musculus with 2 samples.

Results

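The 9 genes described here encode enzymes of foreign-compound metabolism and methyl transfer that are known for their levels in lung: *Inmt*, *Cyp4b1*, *Cyp2f2*, *Fmo2*, *Gstm1*, *Gstm2*, *Gstp1*, *Gsta4* and *Selenbp1*. They were chosen by name, as 9 of the 32285 genes counted, and were read in lung cells that fluoresced under ultraviolet light because they held retinoids (UV-positive cells). All 9 passed the filter on low counts (at least 2.45 UMIs per 1000000 in 2 of 10 sums), but *Cyp2f2* passed only through the 1 cell group in which it was high, so no test of that group against another is given for it; the other 8 passed without their highest group, *Cyp4b1* with 3 such sums. The lung meets inhaled and blood-borne compounds directly. Cytochrome P450 enzymes and flavin monooxygenases add oxygen to such compounds, glutathione S-transferases join glutathione to reactive products, and methyltransferases pass a methyl group from S-adenosylmethionine to small amines and other acceptors. In mouse lung, the P450 genes of this set are classically assigned to airway and vascular cells, and the oxidation of some compounds by them yields reactive products.

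The mice were male, of the C57BL/6 strain, wild type in genotype and 3 months old, and their lungs were digested with pronase and collagenase before live UV-positive singlets were sorted by emission at 455 nm. The 2 libraries (library 1 and library 2) belong to 1 condition and came from experiments on separate occasions; the number of mice behind each is not given in the sources used here, so the spread between them may be technical. Library 1 held 48762735 unique molecular identifiers (UMIs, 1 for each captured transcript) in 9669 barcodes and library 2 held 93970185 in 10050, of which 9634 and 9988 cells had at least 200 genes and at most 10% mitochondrial UMIs. Both libraries used 23 barcodes in common.

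Each cell was assigned by at least 3 UMIs of 1 gate and fewer of the others: *Col1a2*, *Mfap4* and *Pdgfra* for stromal cells, *Cdh5*, *Pecam1* and *Egfl7* for endothelial cells, *Epcam*, *Cdh1* and *Lamp3* for epithelial cells, and *Ptprc*, *Laptm5* and *Cd52* for immune cells. Exactly 1 gate was met by 92.4% of cells in library 1 and 82.4% in library 2. Stromal cells with at least 3 UMIs of *Dcn*, a proteoglycan of the adventitia, were called adventitial (1017 and 998 cells in libraries 1 and 2), and those with none were called alveolar (5805 and 5545). Endothelial cells numbered 56 and 360, epithelial cells 930 and 101, and immune cells 266 and 334. Levels are UMIs per 1000000 UMIs (CPM) of the summed cells of a group in 1 library, and the error between libraries is given by both values. Median UMIs per cell in libraries 1 and 2 were 3958.0 and 6545.0 in alveolar, 6034.0 and 10655.5 in adventitial, 1899.5 and 4028.5 in endothelial, 9340.5 and 13627.0 in epithelial, and 3024.0 and 4552.0 in immune cells.

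Marker genes outside the gates followed the names of the groups. The summed level of 7 alveolar fibroblast markers was 5856 and 6346 CPM in alveolar against 2599 and 3903 CPM in adventitial cells, and that of 6 adventitial markers, with *Pi16* and *Dpt* among them, was 1939 and 865 against 4040 and 2102 CPM. Lists of 5 endothelial and 5 immune markers summed to 15125 and 13154 CPM and to 8339 and 4640 CPM in their own groups, and 6 epithelial markers, surfactant genes among them, to 254402 and 206801 CPM in epithelial cells. Most of the epithelial group met the rule for type 2-like cells (915 of 930 and 94 of 101 cells), and 4 and 1 cells were airway secretory-like, too few for a level of their own.

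Promoter sequence was at hand in RefSeq (build GRCm38) for 8 of the 9 genes, with *Gsta4* missing, and 3 stretches are shown because 2 of them belong to the pair of near-copies whose level differed most between the libraries and the other to *Inmt*, the methyltransferase of the set. Capitals mark TGAGTCA, a site for AP-1 and Maf-type factors, in *Gstp1* and *Gstp2*, and TATAAA, the TATA box, in *Inmt*. Each stretch is 90 bases, 5′ to 3′ on the minus strand, ending at the first exon that GENCODE annotates there or, in *Gstp1*, 6 bases inside it.

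*Gstp1*, chr19:4037980-4038069: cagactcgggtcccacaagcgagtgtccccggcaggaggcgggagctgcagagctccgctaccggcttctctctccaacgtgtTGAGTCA

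*Gstp2*, chr19:4042264-4042353: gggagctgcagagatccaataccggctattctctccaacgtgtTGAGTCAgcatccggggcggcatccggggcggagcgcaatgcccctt

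*Inmt*, chr6:55175044-55175133: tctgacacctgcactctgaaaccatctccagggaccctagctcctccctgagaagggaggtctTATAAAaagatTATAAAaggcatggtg

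Both strands of the window from 250 bases before to 50 after each start were searched. TGAGTCA was found at -74 in *Gstp1* and at -89 in *Gstp2*, counted from the RefSeq start, in none of the other 7 genes with a window, and in 5.21% of all 32817 windows. TATAAA was found at -80 and again closer to the start in *Inmt*, at -113 in *Selenbp1*, at -30 of 1 of the 2 starts of *Gstm1*, and in 13.6% of all windows. In the form TGACNNNGC, the only form searched, the antioxidant response core was in none of the 8 genes' windows and in 12.4% of all windows. The other letters searched were GCGTG (32.4% of all windows), CCAAT (37.4%) and AGGTCA (16.3%).

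*Inmt*, which encodes an N-methyltransferase of indole amines such as tryptamine (chr6:55170626-55175043, minus strand, 3 exons), was a gene of the stromal cells. Its level was 7447 and 6873 CPM in alveolar cells of libraries 1 and 2 and 5507 and 4887 CPM in adventitial cells, and at least 1 UMI was seen in 99.8% and 99.9% of alveolar cells. Endothelial cells had 427 and 214 CPM, immune cells 95.8 and 71.7 CPM and epithelial cells 21.5 and 64.4 CPM. The 2 stromal groups overlapped with no other group. Fitted log2 fold changes of alveolar cells were 4.90 ± 0.39 (SE) over endothelial (adjusted p = 1.4e-08), 6.98 ± 0.43 over epithelial (1.7e-10) and 6.16 ± 0.41 over immune cells (6.1e-10). Against adventitial cells the difference was 0.43 ± 0.32 and did not pass the test (adjusted p = 0.55), although both libraries were higher in alveolar cells.

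Outside the stroma the low levels of *Inmt* were close to the median of 8 stromal markers there, except in epithelial cells of library 2. Single markers spread widely around that median. They ranged from 1.91% to 27.1% and 2.14% to 35.7% of their alveolar levels in endothelial cells of libraries 1 and 2. In immune cells the ranges were 0.66% to 20.6% and 0.36% to 7.14%, and in epithelial cells 0.20% to 10.3% and 0.20% to 17.9%. In endothelial cells *Inmt* was at 5.73% and 3.11% of its alveolar level, while the median of 8 stromal markers (*Col1a1*, *Col3a1* and others) was at 5.78% and 3.13%. The same shares in immune cells were 1.29% and 1.04% for *Inmt* and 1.37% and 1.18% for the markers, and in epithelial cells 0.289% and 0.938% against 0.305% and 0.50%. None of the 8 markers was at 0 in any of these groups, and their summed level ranged from 1668 to 1991 CPM in endothelial, from 254 to 483 CPM in epithelial and from 341 to 472 CPM in immune cells. An *Inmt* UMI was present in 21.1% and 29.3% of immune cells, and among cells thinned to 2000 UMIs in 15.1% and 11.9%. In endothelial cells with no UMI of another gate, *Inmt* was at 215 and 133 CPM. Whether these levels came from the cells themselves was not tested.

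*Fmo2* followed a similar order. This flavin monooxygenase of lung oxidises nitrogen and sulfur atoms of foreign compounds (chr1:162874317-162898726, minus strand, up to 9 exons). Alveolar cells had 3209 and 4220 CPM and adventitial cells 2115 and 2708 CPM. Endothelial cells had 552 and 370 CPM, epithelial cells 28.7 and 87.9 CPM and immune cells 38.8 and 36.4 CPM. Within each library the alveolar value was the highest of the 5 groups, and the adventitial value of library 2 lay below both alveolar values. The fitted difference between the stromal groups was 0.59 ± 0.29 on the log2 scale (adjusted p = 0.28), which was not called, while alveolar cells exceeded endothelial cells by 3.35 ± 0.33 (2.1e-07), epithelial cells by 5.61 ± 0.36 (2.8e-10) and immune cells by 6.37 ± 0.38 (1.5e-10). Unlike *Inmt*, the endothelial level stood at 17.2% and 8.77% of the alveolar one, above the 5.78% and 3.13% of the stromal marker median but within the range of single markers, which reached 27.1% and 35.7%. In general capillary-like endothelial cells *Fmo2* was at 736 and 462 CPM (33 and 140 cells), and in the 103 aerocyte-like cells of library 2 at 263 CPM (95% Poisson interval 228 to 303).

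**Figure D1:**
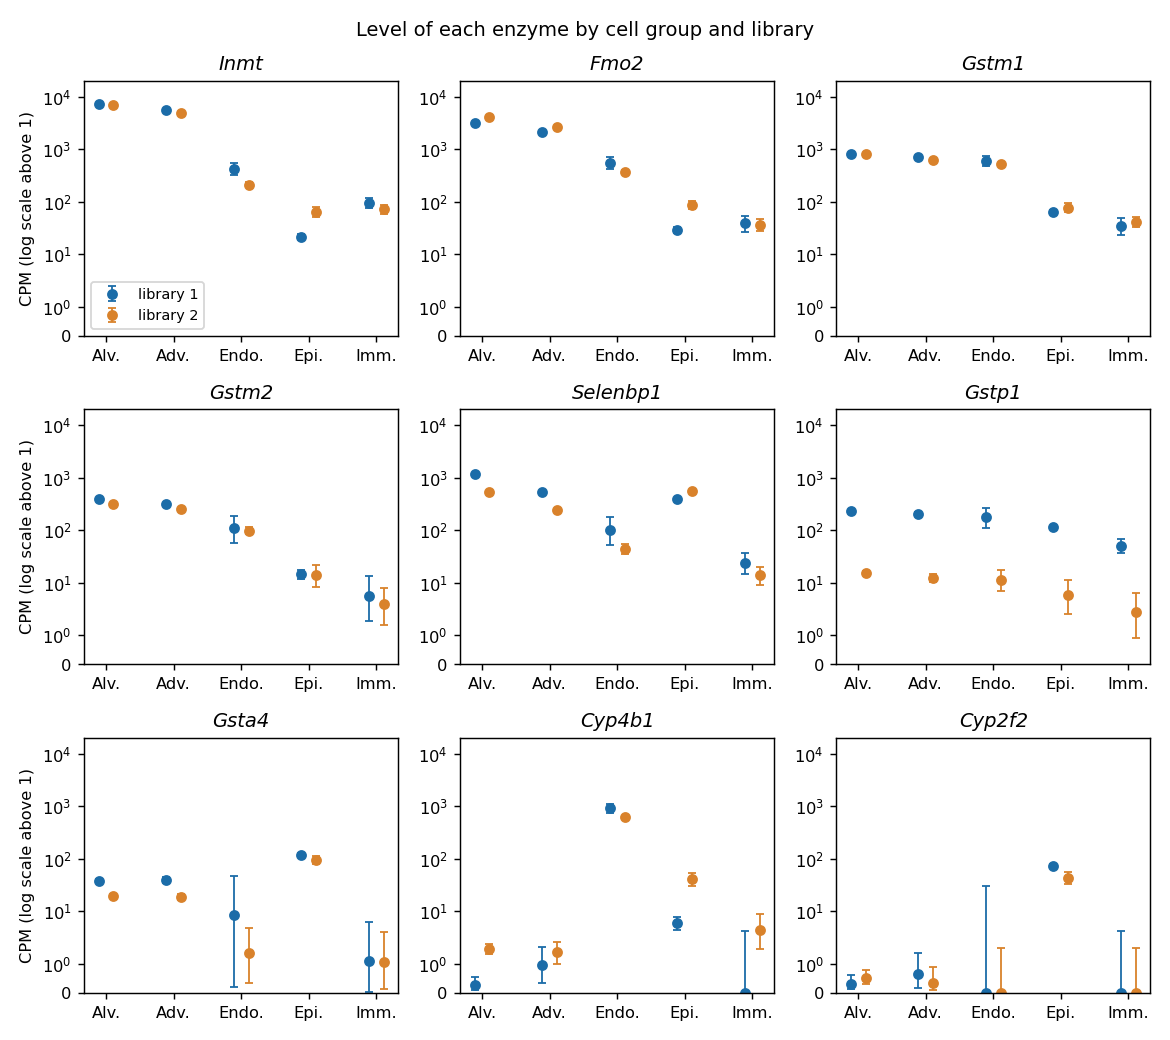
Level of each of the 9 genes in alveolar stromal (Alv.), adventitial stromal (Adv.), endothelial (Endo.), epithelial (Epi.) and immune (Imm.) cells of library 1 (blue) and library 2 (orange), in CPM on an axis that is logarithmic above 1. Bars are exact 95% Poisson intervals for counting error, and *Gstp1* is the gene whose 2 libraries lie apart in every group, for example 238 against 15.5 CPM in alveolar cells.

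The P450 genes were each highest in a non-stromal group. *Cyp4b1*, a P450 known to activate protoxicants such as 4-ipomeanol (chr4:115624725-115647723, minus strand, up to 12 exons), was highest in endothelial cells. It reached 920 and 616 CPM there, against 6.01 and 40.3 CPM in epithelial cells, 0 and 4.41 CPM in immune cells, 0.948 and 1.64 CPM in adventitial and 0.256 and 1.93 CPM in alveolar cells. Endothelial cells stood above every other group in both libraries. The epithelial group was mostly type 2-like (915 of 930 and 94 of 101 cells). With 4 and 1 airway secretory-like cells, it gave no level of *Cyp4b1* for airway cells. The fitted log2 difference of alveolar from endothelial cells was -9.24 ± 0.58 (adjusted p = 5.8e-10), and endothelial cells exceeded epithelial cells by 4.74 ± 0.50 (6.0e-07), in a pair where 40.3% of all genes were called.

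Among endothelial cells of library 2, *Cyp4b1* was at 1038 CPM in aerocyte-like cells (95% Poisson interval 966 to 1113), chosen by *Car4* and *Ednrb*, and at 330 CPM (288 to 377) in general capillary-like cells, with a UMI in 89.3% and 63.6% of cells, which held 6299.0 and 3663.5 UMIs at the median, and in 71.0% and 50% of those cells after thinning to 2000 UMIs. These are values of 1 library and were not tested between the cell types; library 1 had 560 CPM in 33 general capillary-like cells and too few of the other kind. The traces in alveolar and epithelial cells were higher in library 2, where endothelial markers were too: the 5 markers summed to 156 and 385 CPM in alveolar and to 1.39 and 13.2 CPM in epithelial cells of libraries 1 and 2. Epithelial cells with no UMI of another gate had *Cyp4b1* at 6.38 and 38.0 CPM. Type 2-like cells were at 6.01 and 17.5 CPM, below the 40.3 CPM of all epithelial cells in library 2. There 12 of the 94 type 2-like cells and 18 of all 101 epithelial cells had a UMI. The remaining cells, 1 airway secretory-like and 6 of neither kind, thus had a higher level but were too few for a value. In epithelial cells, 3 markers of ciliated cells summed to 0.231 and 45.4 CPM in libraries 1 and 2. The part of endothelial transcripts, or of epithelial cells other than type 2-like ones, in the traces was not tested.

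*Cyp2f2* is best known as the P450 of club cells, where it converts naphthalene (chr7:27119909-27133660, plus strand, up to 10 exons, overlapped on the other strand by *Gm15883*). Here it was seen in epithelial cells, at 74.3 and 43.2 CPM, with a UMI in 36.3% and 27.7% of cells and in 11.9% and 7.92% after thinning. Alveolar stromal cells had 0.299 and 0.516 CPM (7 and 20 UMIs) and adventitial cells 0.632 and 0.345 CPM (4 and 4 UMIs). Endothelial and immune cells had no UMI in either library. A level of 3 UMIs there would be 25.1 and 1.62 CPM in endothelial and 3.42 and 1.65 CPM in immune cells, so the epithelial level was at least 2.96-fold and 26.6-fold higher than the endothelial one in libraries 1 and 2, and at least 21.7-fold and 26.1-fold higher than the immune one. The 2 stromal groups did not differ detectably (fitted log2 difference -0.09 ± 0.66, adjusted p = 0.98).

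Type 2-like cells, which had at least 1% of their UMIs in surfactant genes and under 0.5% in 3 secretoglobin genes of airway secretory cells, held *Cyp2f2* at 68.4 and 30.5 CPM. Its level relative to *Scgb1a1*, the defining club cell transcript, was 0.154 and 0.105 in type 2-like cells, a ratio that the rule for these cells raises, and 0.107 and 0.0418 in all epithelial cells. In alveolar stromal cells the ratio was 0.0225 and 0.0114. The 3 secretoglobin genes summed to 708 and 1035 CPM in epithelial and to 13.6 and 46.4 CPM in alveolar stromal cells. Whether *Cyp2f2* in type 2-like cells was their own was not tested.

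Among the glutathione S-transferases, *Gstm1* and *Gstm2* of the mu class, neighbours on chromosome 3 (chr3:108012255-108017973 and chr3:107981702-107986453, both minus strand, up to 8 exons), were higher in stromal and endothelial cells than in epithelial and immune cells. *Gstm1* was at 828 and 807 CPM in alveolar cells, 708 and 635 CPM in adventitial cells, 602 and 520 CPM in endothelial cells, 63.7 and 76.9 CPM in epithelial cells and 34.2 and 41.4 CPM in immune cells. The 3 leading groups lay close together, and the 2 others were well below them. Alveolar cells exceeded endothelial cells by 0.83 ± 0.21 (log2, adjusted p = 0.0042), a difference of 1.77-fold, and epithelial and immune cells by 3.01 ± 0.22 (1.6e-09) and 4.14 ± 0.24 (9.8e-11). Its endothelial level, 72.8% and 64.4% of the alveolar one, was far above that of the stromal markers.

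*Gstm2* fell more steeply outside the stroma, from 388 and 311 CPM in alveolar and 320 and 260 CPM in adventitial cells to 109 and 97.9 CPM in endothelial cells, 14.4 and 13.9 CPM in epithelial cells and 5.70 and 3.86 CPM in immune cells. No 2 neighbouring groups overlapped except the stromal pair, in which the adventitial value of library 1 exceeded the alveolar value of library 2. Alveolar cells were higher than endothelial cells by 1.93 ± 0.22 (1.6e-06), than epithelial cells by 4.09 ± 0.23 (6.8e-11) and than immune cells by 5.96 ± 0.30 (2.0e-11). The endothelial level of *Gstm2* stood at 28.0% and 31.5% of the alveolar one. The stromal marker median there was 5.78% and 3.13%, but single markers reached 27.1% and 35.7%. Neither mu-class gene was called between the stromal groups, with differences of 0.25 ± 0.19 and 0.24 ± 0.19 and an adjusted p of 0.57 for each. The transcripts of the pair were 66.2% identical, and no stretch of 90 bases in the last 500 of either was found in another gene's transcripts.

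*Gsta4*, an alpha-class transferase that conjugates 4-hydroxynonenal, a product of lipid peroxidation (chr9:78182774-78209349, plus strand, up to 7 exons), led in epithelial cells at 120 and 95.2 CPM. Alveolar and adventitial cells were alike in level, with 38.4 and 19.8 CPM and 39.7 and 18.8 CPM. Endothelial cells held 1 and 3 UMIs (8.37 and 1.62 CPM) and immune cells 1 and 2 UMIs (1.14 and 1.10 CPM). The fitted log2 difference of alveolar from epithelial cells was -2.48 ± 0.21 (1.2e-08), and alveolar cells exceeded endothelial and immune cells by 3.57 ± 0.52 (2.3e-05) and 4.25 ± 0.51 (1.5e-06). In the 48 and 263 endothelial cells with no UMI of another gate, no *Gsta4* UMI was counted, which allows up to 29.4 and 2.50 CPM (3 UMIs).

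*Gstp1*, the pi-class transferase (chr19:4035407-4037985, minus strand, up to 7 exons), was present in every group but at very different levels in the 2 libraries. Library 1 had 238 CPM in alveolar, 208 in adventitial, 176 in endothelial, 115 in epithelial and 50.2 CPM in immune cells. Library 2 had 15.5, 12.3, 11.4, 5.86 and 2.76 CPM in the same groups. The order of the groups was the same in both libraries, and every value of library 2 lay below every value of library 1. With the library as a block, alveolar cells exceeded immune cells by 2.02 ± 0.26 (3.3e-06), epithelial cells by 0.55 ± 0.22 (0.040) and endothelial cells by 0.73 ± 0.25 (0.035), the latter on 21 UMIs in each library. Without the block, none of these 3 was called, with an adjusted p of 0.37, 0.88 and 0.67. DESeq2 gave the endothelial and epithelial differences an adjusted p of 0.076 and 0.074, and scaling by total UMIs gave the endothelial difference 0.17. The epithelial difference was also not called with a gate of 5 UMIs (0.051), a mitochondrial limit of 5% (0.068) or cells without any UMI of other gates (0.092), or after thinning cells to 2000 UMIs (0.057), and the endothelial one without the 5% deepest cells (0.080).

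*Selenbp1*, selenium-binding protein 1, a methanethiol oxidase (chr3:94933056-94944758, plus strand, up to 12 exons), had high levels in both alveolar stromal and epithelial cells. Alveolar cells had 1174 and 540 CPM and epithelial cells 390 and 551 CPM. Adventitial cells had 548 and 245 CPM, endothelial cells 100.4 and 44.4 CPM and immune cells 23.9 and 13.8 CPM. The alveolar and epithelial groups overlapped, and the epithelial value was the only one higher in library 2. Alveolar exceeded adventitial cells by 1.08 ± 0.29 on the fitted log2 scale, 2.11-fold, with an adjusted p of 0.025 and the same direction in both libraries. The difference was not called by DESeq2 (1.04, adjusted p = 0.27) or without the library block (1.06, adjusted p = 0.57).

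Alveolar *Selenbp1* exceeded the endothelial level by 3.92 ± 0.37 (1.4e-07) and the immune level by 5.19 ± 0.39 (2.7e-09), while the difference from epithelial cells was 0.15 ± 0.29 (adjusted p = 0.70). The difference of adventitial from epithelial cells was -0.93 ± 0.30 (0.016), beside 48.2% of all genes called in that pair. Only library 2 had that direction in CPM. In library 1 the adventitial level was higher by 0.49 on the log2 scale, as a ratio of CPM without the TMM factors of the fit. Total UMIs in place of TMM factors moved the median of all genes in this pair by 0.52 toward adventitial cells. The difference was not called by DESeq2 (adjusted p = 0.064), with scaling by total UMIs (0.25) or without the library block (-0.72, adjusted p = 0.31). Of the windows of 90 bases at its 3′ end, 23.1% also occurred in *Selenbp2*, its near-copy, which was listed at 0.213 and 0.309 CPM in alveolar and at 5.66 and 5.13 CPM in epithelial cells.

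Counted over the 8 genes other than *Cyp2f2*, alveolar cells differed from adventitial cells in 1, beside 8.68% of all 13313 genes tested, with 2.94% higher in alveolar and 5.75% higher in adventitial cells. The median log2 difference was 0.25 over the 8 genes and 0.03 over all genes. Between alveolar and endothelial cells 8 of 8 were called, 7 higher in alveolar cells, beside 33.0% of all genes called, 18.2% higher and 14.8% lower in alveolar cells. The median over the 8 genes was 2.64, against 0.18 over all genes. Between alveolar and epithelial cells 7 of 8 were called, 5 higher and 2 lower in alveolar cells, beside 51.1% of all genes (26.7% and 24.4%), with medians of 1.78 and 0.11. Between alveolar and immune cells 7 of 8 were called and were higher in alveolar cells, beside 52.4% of all genes (28.3% higher and 24.1% lower in alveolar cells), with medians of 4.72 over the 8 and 0.18 over all genes. These comparisons share the alveolar sums. Over the 10 pairs of groups, 64 of the 80 differences were called, beside 40.2% of all genes.

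Of the 4 comparisons of alveolar cells, scaling moved that with epithelial cells most. With total UMIs in place of TMM factors, the median of all genes moved by 0.55 toward alveolar over epithelial cells, and 75.1% in place of 52.3% of the called genes were higher in alveolar cells; against immune cells the median moved by 0.27 and the share from 54.0% to 64.3%, and against endothelial cells the median moved by -0.17 and the share from 55.2% to 45.5%. *Selenbp1* was then 0.70 higher in alveolar than epithelial cells, still not called (adjusted p = 0.056). The directions of the 7 genes, *Cyp2f2* left out, called against epithelial cells and of the 7 called against immune cells were kept under this scaling.

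**Figure D2:**
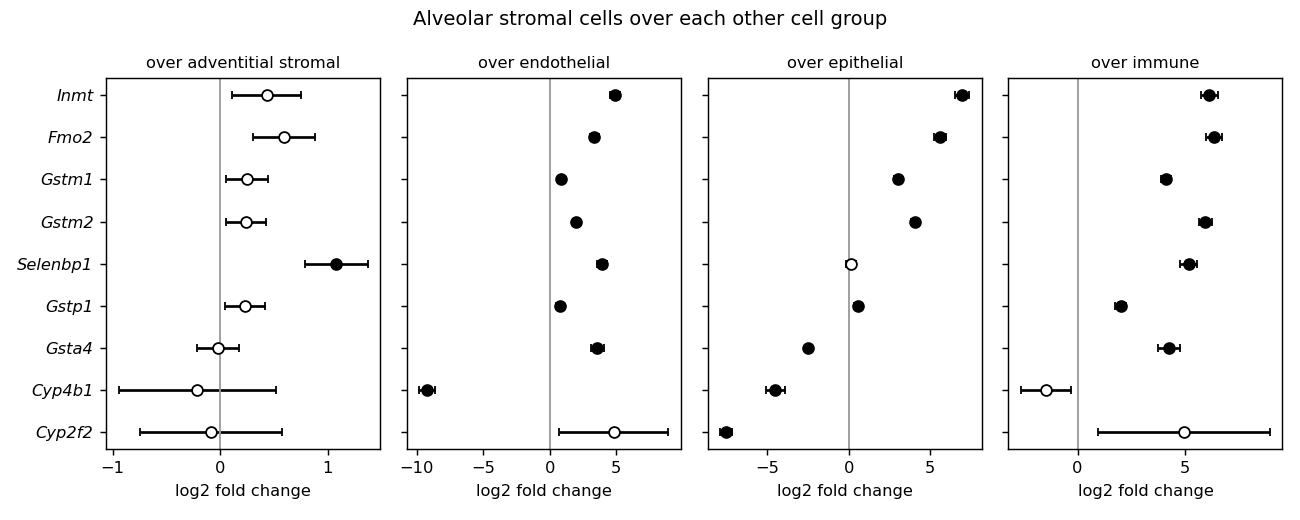
Fitted log2 fold change of alveolar stromal cells over each other group for the 9 genes, with bars of 1 SE from the model over 10 sums (2 libraries of 5 groups). Filled points passed an adjusted p of 0.05 and open points did not; the values of *Cyp2f2* against endothelial and immune cells rest on 0 UMIs in those groups and are no measure of size, and its filled point against epithelial cells supports nothing, since it passed the filter only through them. Against adventitial cells only *Selenbp1*, at 1.08, is filled.

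Within the stroma *Selenbp1*, *Fmo2* and *Inmt* were lower in cells with more *Dcn*, the transcript that set the groups, so the gradient is a description. From cells with no *Dcn* UMI to those with over 20 (338 and 370 cells), the level of *Selenbp1* in library 1 was 1174 CPM at the start and 467 CPM at the end, and in library 2 it was 540 and then 231 CPM, so that 39.8% and 42.7% were left. *Fmo2* reached 60.1% and 62.6% and *Inmt* 61.4% and 68.9% of their levels in cells without *Dcn*. *Gstm1* stood at 91.7% and 81.4%, *Gstm2* at 79.9% and 81.7%, *Gstp1* at 82.8% and 83.1% and *Gsta4* at 100.9% and 89.2%. The 3 genes with the lowest share left were the same in both libraries. Much of the difference in *Selenbp1* was present by 2 *Dcn* UMIs, at 710 and 331 CPM. Median UMIs per cell were higher at the far end of the same axis, at 6698.5 and 11023.0 against 3958.0 and 6545.0, and their part in the gradient was not tested.

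**Figure D3:**
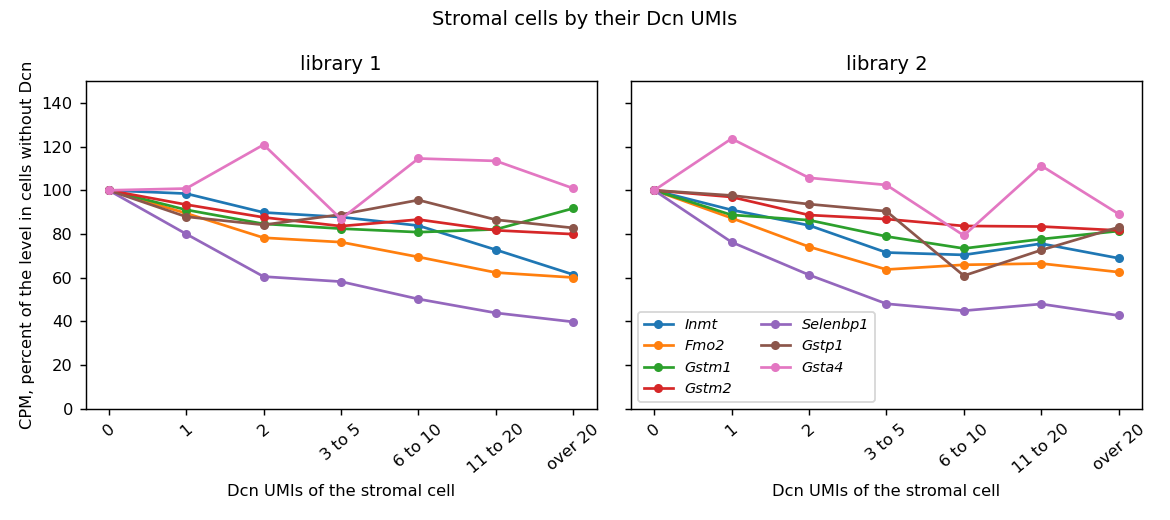
Levels of 7 of the genes in stromal cells of library 1 (left) and library 2 (right), grouped by *Dcn* UMIs, as a percentage of the CPM in cells without *Dcn*. *Selenbp1* falls to 39.8% and 42.7% in cells with over 20 *Dcn* UMIs, and *Gsta4* ends at 100.9% and 89.2%; *Cyp4b1* and *Cyp2f2* are left out for their few UMIs.

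The libraries were compared as values, with no test, since each stood for 1 sample. In alveolar cells *Gstp1* had 5582 UMIs in library 1 and 600 in library 2, a ratio of library 2 to library 1 in CPM of 0.0649 (exact 95% interval for counting error 0.0596 to 0.0707), or 15.4-fold lower. The ratio was 0.0589 (0.0492 to 0.0701) in adventitial, 0.0647 (0.0336 to 0.124) in endothelial, 0.0510 (0.0220 to 0.101) in epithelial and 0.0550 (0.0170 to 0.138) in immune cells. These 5 intervals overlapped. Among genes of at least 50 CPM, *Gstp1* had the lowest ratio of 3059 genes in alveolar, 3014 in adventitial, 3470 in endothelial and 2064 in epithelial cells, beside 2.32%, 2.52%, 6.22% and 1.6% of genes that were over 2-fold lower in library 2. Thinned to 2000 UMIs, 36.5% of alveolar cells in library 1 and 3.36% in library 2 had a *Gstp1* UMI; unthinned shares were 56.7% and 10.2%.

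Ratios of the other stromal genes lay closer to 1. *Inmt* was at 0.923 and 0.887 in alveolar and adventitial cells, *Fmo2* at 1.31 and 1.28, *Gstm1* at 0.975 and 0.898, and *Gstm2* at 0.802 and 0.814. *Gsta4* was lower in library 2 in the stroma, at 0.516 and 0.475. *Selenbp1* was over 2-fold lower there, at 0.460 (0.452 to 0.468) and 0.447, and at 0.442 in endothelial cells, but was at 1.41 (1.31 to 1.53) in epithelial cells. *Inmt* and *Fmo2* were at 3.00 and 3.07 in epithelial cells, beside 2.86% of genes over 2-fold higher in library 2 there, where the sum of 8 stromal markers was also higher in library 2, at 483 against 254 CPM.

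**Figure D4:**
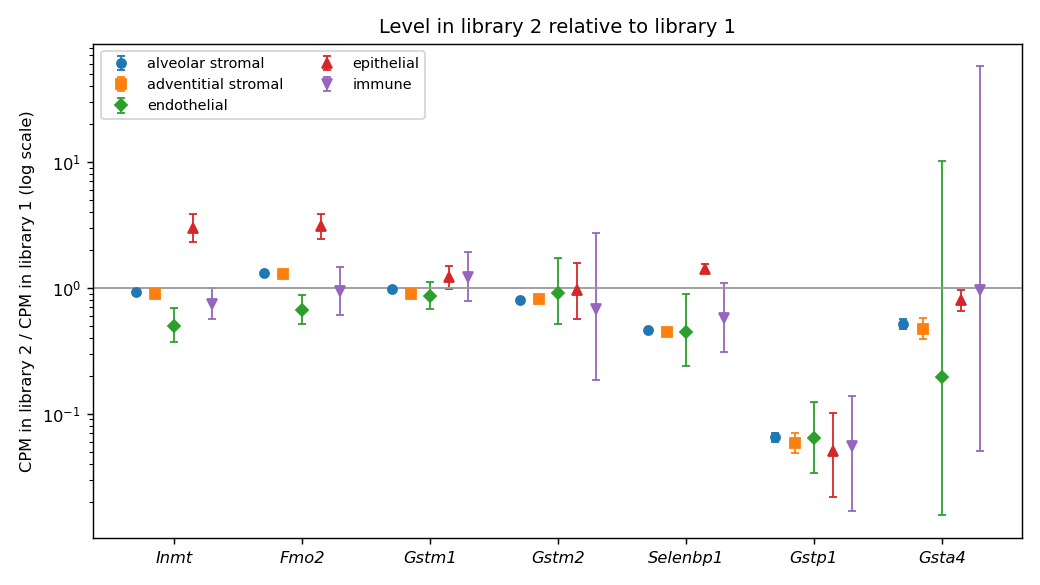
CPM in library 2 divided by CPM in library 1 (log axis) for 7 genes in the 5 cell groups, with exact 95% intervals for counting error. *Gstp1* lies between 0.0510 and 0.0649 in the 5 groups, while *Selenbp1* is at 0.460 in alveolar and 1.41 in epithelial cells; *Cyp4b1* and *Cyp2f2* are not drawn because their counts are low or 0 in most groups.

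Of the genes near *Gstp1*, its near-copy had a like ratio. *Gstp2*, whose start is on the same strand of chromosome 19, was at 10.8 and 0.877 CPM in alveolar cells, a ratio of 0.0812, and *Gstp3* had 44.6 and 20.5 CPM in epithelial cells and at most 0.158 CPM in stromal cells. The 9 other genes of at least 10 CPM whose midpoints lay within 150000 bases had ratios of 0.520 to 0.916 in alveolar cells. Transcripts of *Gstp1* and *Gstp2* were 90.6% identical and their promoter windows 77.1%, and of the 90-base windows at the 3′ end of *Gstp1* 68.1% also occurred in *Gstp2* or the pseudogene *Gstp-ps*. Reads of such stretches cannot be assigned to 1 gene, so the split between these genes is uncertain. No stretch of this length at the 3′ end of *Inmt*, *Fmo2*, *Cyp4b1*, *Cyp2f2*, *Gstm1*, *Gstm2* or *Gsta4* was shared.

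By a rule set after the values were seen, 2 of 3448 genes of at least 20 CPM in 1 library of every group were at least 4-fold lower in library 2 in all 5 groups, *Gstp1* and *Gm10076*, and 0 were 4-fold higher in all 5. *Gm10076*, a long intergenic RNA on chromosome 14, had 470.6 and 52.2 CPM in alveolar cells, and 38.6% of its windows also occurred in *Rpl41*. Over genes of at least 50 CPM in alveolar cells, the median ratio was 1.04 for 2804 genes with no shared window, 0.874 for 164 with under 50% shared and 0.865 for 90 with 50% or more shared, and 2.03%, 6.10% and 4.44% of them were over 2-fold lower in library 2. The part of shared sequence or of the separate occasions of the experiments in the *Gstp1* difference was not tested, and the library and any difference between the mice or sorts behind it cannot be told apart.

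Beyond the 9, a list of 89 related genes was read, of which 87 were found and 71 tested. Between alveolar and adventitial cells 4 were higher and 6 lower, with 61 not called, beside 2.94% and 5.75% of all genes. *Mettl7a1*, a methyltransferase-like gene, was at 680 and 826 CPM in alveolar against 232 and 306 CPM in adventitial cells (1.46 ± 0.21, adjusted p = 1.1e-04), and the alpha-class *Gsta3* at 752 and 557 against 372 and 301 CPM (0.92 ± 0.21, 0.0068). The aldehyde oxidase *Aox3* was lower in alveolar cells, at 6.62 and 5.36 against 34.0 and 34.0 CPM (-2.54 ± 0.20, 2.0e-07), as was *Cyb5r3*, a cytochrome b5 reductase, at 68.8 and 75.2 against 187.7 and 174 CPM (-1.37 ± 0.23, 5.4e-04).

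Against endothelial cells 26 of the related genes were higher in alveolar cells and 10 lower, beside 18.2% and 14.8% of all genes. *Nnmt*, the methyltransferase of nicotinamide, had 233 and 131 CPM in alveolar and 8.37 and 3.79 CPM in endothelial cells (5.39 ± 0.44, 1.9e-08), and *Gstt1* of the theta class 254 and 179 against 8.37 and 7.03 CPM (4.86 ± 0.32, 1.4e-09). In the 56 endothelial cells of library 1, 8.37 CPM was 1 UMI and 25.1 CPM was 3 UMIs, so such levels lie near the floor. The endothelial side held *Cyp1a1*, the P450 that the aryl hydrocarbon receptor induces, at 25.1 and 53.0 CPM against 0.0427 and 0.103 CPM, and *Fmo1*, a relative of *Fmo2*, at 1154 and 767 against 46.6 and 53.4 CPM (-3.94 ± 0.25, 8.0e-10). *Fmo1* thus differed in the opposite direction to *Fmo2*.

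Epithelial cells had lower levels than alveolar cells of 26 related genes and higher levels of 24, beside 26.7% and 24.4% of all genes. *Nnmt* (0.809 and 2.20 CPM) and the mu-class *Gstm5* (0.809 and 0 CPM, against 91.8 and 70.3 CPM in alveolar cells) were lower, with *Nnmt* at 233 and 131 CPM in alveolar cells. *Cbr2*, a carbonyl reductase known for its abundance in lung, was at 2247 and 3349 CPM against 8.54 and 6.65 CPM in alveolar cells, and the microsomal *Mgst2* at 30.2 and 12.4 CPM against 0 and 0.0773 CPM. Against immune cells 36 were higher in alveolar cells and 15 lower, beside 28.3% and 24.1% of all genes. The sulfotransferase *Sult5a1* had 42.8 and 39.7 CPM in alveolar cells and no UMI in immune cells, and *Cyp2d22* 46.9 and 70.5 CPM against 0 and 0.552 CPM. *Cyp4f18*, a P450 of leukotriene B4 breakdown in leukocytes, was at 133 and 110.9 CPM in immune and 0.0427 and 0.0773 CPM in alveolar cells, and *Slc7a11*, the cystine importer that feeds glutathione synthesis, at 104.9 and 51.9 against 0.171 and 0.232 CPM.

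Patterns were also compared over the 10 sums of library and group by Pearson's r of log2(CPM + 1), as a description over sums that share libraries and depth. *Fmo2* and *Inmt* were at 0.970, *Gstm1* and *Gstm2* at 0.980, and *Gsta4* and *Selenbp1* at 0.900. Of 8698 genes of at least 20 CPM in some group, those most like *Inmt* were *Fxyd1* (0.998), *Rarres2* and *Dpep1*, and those most like *Fmo2* were *Nexn* (0.996), *Adamts5* and *Tns3*. *Cyp4b1* was most like *Shroom4* (0.982), *Rassf9* and the gate gene *Egfl7*, and *Cyp2f2* most like *Bex1* (0.997), *Ttc36* and *Pon1*. *Gstm1* was nearest to *Mettl24* (0.992), *Lhfp* and *Cavin3*, and *Gstm2* to *Gnas* (0.994), *Sgce* and *Zfp9*. *Gsta4* paired with *Srebf1* (0.985), *Pigyl* and *Tst*, *Selenbp1* with *Tmem97* (0.974), *Smim1* and *Ces1d*, and *Gstp1*, with its library difference, with *Romo1* (0.948), *Phb* and *Ndufa2*.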

How the data were processed

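Per the labels and the study's methods, UV-positive lung cells were sorted and made into 10x 3′ v3.1 libraries. The authors deposited raw UMI counts per gene and barcode, which the submitters' processing notes tie to Cell Ranger 5.0.1 and mm10; strand is kept by the 3′ kit, and the handling of reads that match more than 1 gene was not given in the sources used here.

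The 9 genes, the lists and the gates were chosen with earlier results of these data known. Cells in more than 1 gate (420 and 1640) or none (317 and 115) were left out, and no other doublet step was run. UMIs were summed per library and group. The 10 sums were compared with edgeR 4.0.16 (R 4.3.3) by its quasi-likelihood test, two-sided, with TMM factors, filterByExpr and the library as a block, because every library held all groups. The Benjamini-Hochberg adjustment covered the 13313 genes tested in each pair, calls were made at 0.05, and the gate genes and *Dcn* were not tested. Every adjusted p is from these fits unless DESeq2 1.42.0 or another setting is named. CPM are scaled by all UMIs of a sum, without the TMM factor, and are not divided by length, since the assay counts 3′ ends. Poisson and binomial intervals cover counting error only.

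Named genes were the 9, up to 4 related genes a pair (the 2 largest fitted changes in each direction among those called, with at least 20 CPM in the higher group), and the 3 genes most like each of the 9. Shares of cells were also taken after thinning to 2000 UMIs. Annotation was GENCODE M21 (GRCm38).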

Additional observations from a re-analysis of the deposited data

How the results depend on the processing

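With 2 libraries a spread is known with little precision, and the endothelial and epithelial groups held few cells in libraries 1 and 2, so levels of few UMIs there limit what can be seen. Of all 9 genes, *Cyp2f2* included here, 1 was called between alveolar and adventitial cells; the count was 0 with DESeq2, 0 with no replicate block (library left out of the pairing) and 2 with no filter on low counts, and 1 under the other settings tried. Over all 10 pairs, 57 of the 90 differences were called without the block, in place of 68. The 68 hold calls of *Cyp2f2* against epithelial cells, which support nothing. Leaving *Cyp2f2* out, 64 of 80 were called with the block, beside 40.2% of all genes. Calls among all genes also fell without the block, for example from 6804 to 4664 between alveolar and epithelial cells. The counts of alveolar cells against endothelial, epithelial and immune cells stayed between 6 and 8 under each setting. That against epithelial cells can include *Cyp2f2*, so its steadiness is partly built in. Calls among all genes in that pair ran from 3916 of 10796 after thinning to 8386 of 13313 with total UMIs. The *Gstp1* ratio in alveolar cells stayed between 0.0643 and 0.0703. Fits to 1 library have no residual degrees of freedom, so leaving out a library gave values and no calls. These values were CPM ratios of the library kept, with 0.5 CPM added and no TMM factor. Set against the fitted values, 47 of the 90 differences moved by more than 1 SD between libraries without library 1, and 67 without library 2. These moves hold the change of scaling as well, and its part was not tested. All genes called between alveolar and adventitial cells numbered 1156, but 613 with DESeq2 and 253 with no replicate block. Thinning to 2000 UMIs before gating lowered the counts of called genes from 6804 to 3916 (alveolar against epithelial), 6979 to 4629 (alveolar against immune), 4414 to 2850, 6418 to 3639 and 6760 to 4266 (adventitial against endothelial, epithelial and immune), 5370 to 3113 (endothelial against epithelial) and 6390 to 3846 (epithelial against immune). DESeq2 moved the median log2 difference of all genes by over 0.1 in 3 pairs, alveolar against endothelial (-0.14), epithelial (-0.13) and immune cells (-0.18). Under total UMIs in place of TMM, the share of called genes higher in the first group went from 56.6% to 45.6% for adventitial against endothelial, 52.7% to 74.7% for adventitial against epithelial, 49.1% to 76.8% for endothelial against epithelial, 49.7% to 68.5% for endothelial against immune and 51.5% to 40.3% for epithelial against immune cells.

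Differences that changed sign in fits to both libraries follow, and the cause was not tested. Those of *Cyp2f2*, and that of *Gsta4* in endothelial over immune cells, rest on few or no UMIs and are no measure of size. Total UMIs turned *Gsta4*, alveolar over adventitial, to 0.0097, and *Gstp1*, endothelial over epithelial, from -0.17 to 0.69 (adjusted p = 0.041). Leaving out the 5% deepest cells turned *Cyp2f2* and *Gsta4*, alveolar over adventitial, to 0.21 and 0.015. Cells with no UMI of other gates gave 0.40 and 0.60 for *Cyp4b1* in alveolar and adventitial over immune cells and -6.33 for *Gsta4* in endothelial over immune cells. Thinning gave 1.21, 4.47 and 0.040 for *Cyp4b1*, *Cyp2f2* and *Gsta4* in alveolar over adventitial cells, -1.54 and -1.40 for *Cyp2f2* in alveolar over endothelial and immune cells, -6.02 and -5.87 in adventitial over endothelial and immune cells, and -0.41 and -0.77 for *Fmo2* and *Gstm2* in epithelial over immune cells. Single-library values were CPM ratios without TMM factors, so they differed from the fits in scaling as well. Among them, *Selenbp1* in adventitial over epithelial cells ranged from -1.17 to 0.49 when 1 library was left out. It was the 1 called difference among 9 that had another sign in a single library. Of the others, *Gstp1* in endothelial over epithelial cells was at 0.90 and 0.61 on the log2 scale in libraries 2 and 1. Its CPM ratios were 1.94 and 1.53, so both libraries were higher in endothelial cells. *Selenbp1* in alveolar over epithelial cells was at -0.031 in library 2 against 1.59 in library 1, on the log2 scale.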

Other observations

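Barcodes outside the 5 groups also held transcripts of the enzymes. Median UMIs were 6001 and 14766 in those with stromal and endothelial gates, and 12873 and 19778 in those with stromal and epithelial gates. Whether such barcodes held more than 1 cell was not tested. Barcodes that met both the stromal and the endothelial gate numbered 86 and 931 in libraries 1 and 2, and had *Inmt* at 5337 and 3356 CPM, *Fmo2* at 2785 and 2297 CPM and *Cyp4b1* at 211 and 331 CPM. Barcodes with stromal and epithelial gates (187 and 123) had *Inmt* at 2360 and 2641 CPM, *Gsta4* at 99.5 and 61.6 CPM and *Cyp2f2* at 63.4 and 22.8 CPM. In both sets *Inmt* lay between its levels in the alveolar stromal and the other group, and *Gstp1* kept a low level in library 2, at 12.9 and 15.3 CPM against 225 and 147 CPM in library 1. Stromal cells with 1 or 2 *Dcn* UMIs (823 and 895), which the stromal comparison left out, had *Inmt* at 7167 and 6110 CPM and *Selenbp1* at 879 and 387 CPM.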
